A study of Mus musculus with 6 samples.

Results

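Progress from G1 into S phase was examined at its entry point, the genes of the CDK inhibitors and the D cyclins, in mouse leukaemia cells treated with UNC0638. The members are 10 genes: the Cip/Kip inhibitors Cdkn1a, Cdkn1b and Cdkn1c, the Ink4 inhibitors Cdkn2a, Cdkn2b, Cdkn2c and Cdkn2d, and the D cyclins Ccnd1, Ccnd2 and Ccnd3. A member was measured by probe sets annotated to it and to no other gene, and where it had more than 1, by the brightest. This gave 9 of the 10 members among 19937 genes tested. The probe set of Cdkn1a is annotated to a second gene as well, so no value is given for it.

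The cells were haematopoietic stem and progenitor cells of the mouse made leukaemic by the homeobox genes HoxA9 and Meis1, a combination used as a model of acute myeloid leukaemia. UNC0638, a small molecule that inhibits the histone H3 lysine 9 methyltransferases G9a and GLP, was given for 5 days (3 arrays), and cells given DMSO for 5 days were the controls (3 arrays). Both groups carried HoxA9 and Meis1 and grew in medium with serum, IL3, IL6 and SCF. The dose of UNC0638, the number of independently transformed lines and whether the 3 samples of a group were separate cultures could not be learned from the labels. The p-values therefore take in only the variation among these arrays, and this may be technical. The question was which transcripts depend on the enzyme activity of G9a.

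A D cyclin is made when growth factors are present. It joins the kinases CDK4 or CDK6, and the active complex phosphorylates the retinoblastoma protein, which frees E2F factors to switch on the genes of DNA replication. Ink4 inhibitors bind CDK4 and CDK6 and keep the D cyclin off. Cip/Kip inhibitors act on complexes of cyclins with CDKs, above all those that hold CDK2, and are also carried by cyclin D complexes.

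The arrays were close in level, with median intensities of 52.7 to 54.9 after UNC0638 and 50.4 to 52.5 after DMSO over 34760 probe sets. An intensity is the brightness of a probe set on a linear scale as deposited, and levels of different genes are not compared. The number of arrays limits the precision. All 12 markers of myeloid progenitors were measured, and their summed intensity was 26071 to 27800 after UNC0638 and 25586 to 26601 after DMSO. Of these 12, 0 passed the test and 4 were higher at an unadjusted limma p under 0.05 with their groups apart (Itgam at 0.46, Csf1r at 0.52, Cd34 at 0.27 and Ptprc at 0.25 on the log2 scale), against 6.47% of all genes higher at that p. Over the 12, 8 lay above 0 and 4 below (Prtn3 at -0.16, Ctsg at -0.10, Elane at -0.045 and Cebpa at -0.012). Among markers of other cell types, 2 of 6 genes on the mast cell list passed the test and rose, against 0.371% of all genes. They were Cma1 (0.73 on the log2 scale, limma adjusted p = 0.0181) and Tpsb2 (0.69, limma adjusted p = 0.0164). The sum of these 6 genes was 8914 to 9565 after UNC0638, against 7005 to 8137 after DMSO. Within it Mcpt8, a protease of basophils, averaged 2743 after UNC0638 and 2038 after DMSO, so the sum is not one of mast cells alone. Cpa3, the brightest, overlapped between the groups (0.14). Of 7 macrophage markers 0 passed and 4 were higher at an unadjusted limma p under 0.05 (6.47% of all genes). The sum of the 7 was 6104 to 6607 after UNC0638, against 4201 to 5204 after DMSO. Csf1r is also on the progenitor list, and C1qa (2.9e-05), C1qb (-0.023) and C1qc (0.067) overlapped between the groups. The sum of 5 B cell markers was 159 to 178 after UNC0638 and 142 to 148 after DMSO, with the largest difference in Cd79b (0.35). That of 5 T cell markers was 174 to 209 after UNC0638 and 161 to 166 after DMSO. Cd79a, Ms4a1, Ebf1 and Cd3g were dim, with group means of 13.1 to 21.4, beside array lower quartiles of 20.9 to 22.8. For 3 megakaryocyte markers the sum was 591 to 803 after UNC0638, against 809.5 to 1053 after DMSO. The lower megakaryocyte sum was that of Pf4 (-0.66), as Itga2b (0.21) and Gp9 (0.029) lay above 0. Sums of 3 erythroid markers overlapped between the groups (123 to 133 after UNC0638, 111 to 134 after DMSO). So did those of 6 fibroblast markers (3055.5 to 3764 after UNC0638, 3322 to 4046 after DMSO). Most of the fibroblast sum was Thy1, which averaged 3127 after UNC0638 and 3289 after DMSO. The lowest reading of any probe set was 2.74 to 2.98 on the 6 arrays, so a reading above 0 does not show that a marker was expressed. The part of these shifts in the results that follow was not tested, and in bulk RNA fewer cells of a type and less RNA per cell cannot be told apart.

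None of the 9 measured members passed the test after UNC0638 (limma with Benjamini-Hochberg adjustment over all genes, threshold 0.05), which 0.672% of all genes did. At an unadjusted limma p under 0.05 there were 3 members, Ccnd2 with a lower signal and Cdkn1b and Cdkn2c with a higher one, against a background of 12.7% of all genes. In the same 3 the arrays of the groups did not overlap, 2 of them higher and 1 lower after UNC0638, which held for 17% of all genes (9.59% higher and 7.4% lower). Differences are in log2(intensity + 16), UNC0638 minus DMSO, a scale that understates changes of dim genes. The median difference of the 9 members was -0.011, beside 0.012 for all genes tested, with 4 members above 0 and 5 below.

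**Figure D1:**
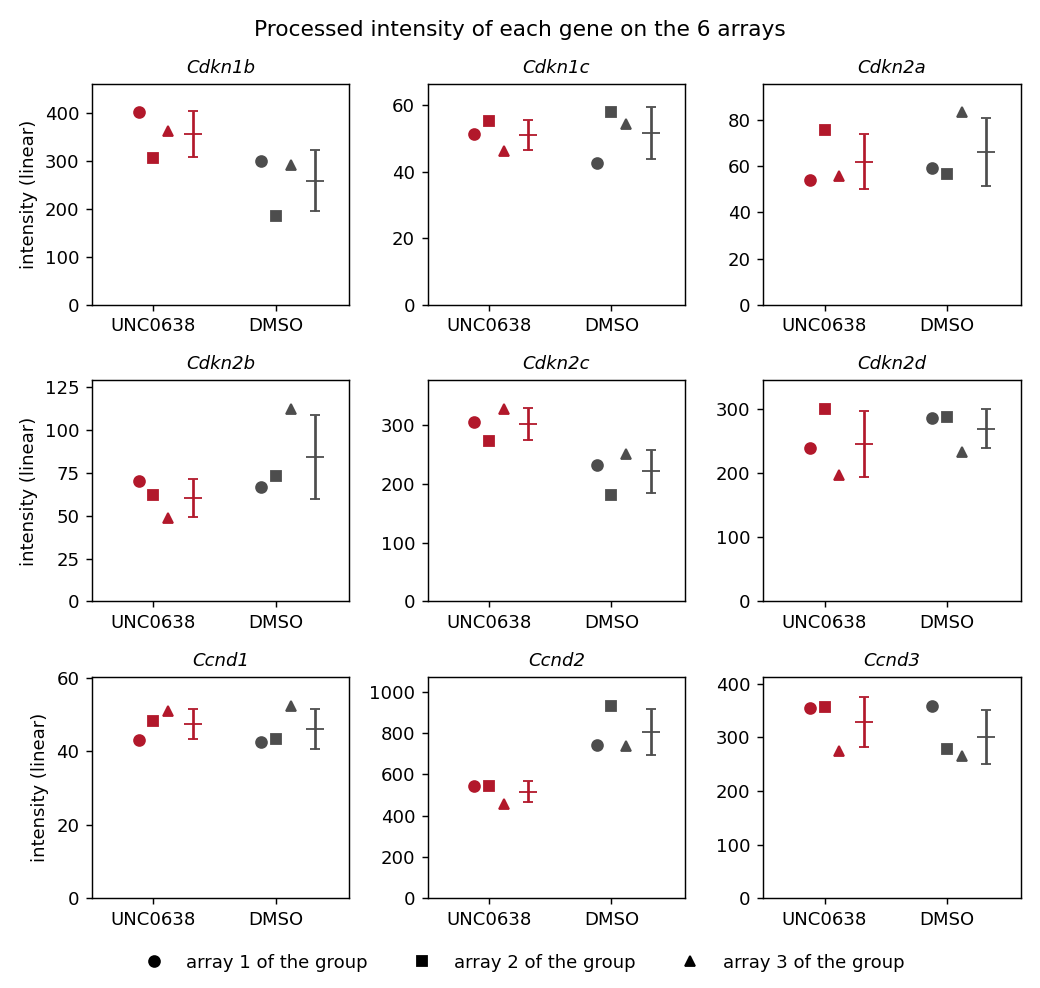
Processed intensity (linear scale, from 0) of the 9 measured genes, with the 3 UNC0638 arrays in red on the left of each panel and the 3 DMSO arrays in grey on the right; symbols give the array number, and bars the mean and SD. All UNC0638 points of Ccnd2 lie below all of its DMSO points, those of Cdkn1b and Cdkn2c lie above, and the other 6 genes overlap.

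Of the D cyclins, Ccnd2 had the largest difference. Its probe set (10548105) read 546, 544 and 456 on the UNC0638 arrays, against 741, 933 and 739 on the DMSO arrays. Every UNC0638 array thus lay below every DMSO array, and the highest DMSO reading was that of DMSO 2. The means were 515 ± 51.3 after UNC0638 and 804 ± 112 after DMSO (SD, n = 3 each). The log2 difference was -0.62, or 0.65-fold on that scale (SE 0.12, 95% interval -0.89 to -0.35), and in the ranking of all genes by limma p it stood at place 186. Its adjusted p of 0.0664 missed the threshold (limma). It was 0.0399 when the dimmest 40% of genes were left out and 0.0404 with a trended, robust prior, and over 15 alternatives it ran from 0.0399 to 0.169. Ccnd2 encodes cyclin D2, a D cyclin of haematopoietic cells whose gene responds to cytokines.

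Ccnd3, which encodes cyclin D3, the D cyclin used in lymphoid and erythroid development, had intensities of 355, 356 and 275 after UNC0638 and of 359, 279 and 265 after DMSO. The groups overlapped, with 1 DMSO array above all the UNC0638 arrays. Its means were 329 ± 46.5 after UNC0638 and 301 ± 50.6 after DMSO (SD, n = 3 each), with a log2 difference of 0.12 (SE 0.14, 95% interval -0.19 to 0.44, limma adjusted p = 0.802). That difference was 0.042 without DMSO 3 and 0.25 without DMSO 1. Ccnd1, which encodes cyclin D1, read 43.0, 48.2 and 50.8 after UNC0638 and 42.5, 43.3 and 52.3 after DMSO. These readings lie near the median of all probe sets on the same arrays, and the UNC0638 readings lay within the range of the DMSO readings. The difference was 0.031 (SE 0.093, 95% interval -0.18 to 0.24, limma adjusted p = 0.942), and it was -0.015 with quantile normalization and -0.014 with median centring, so no direction is given for Ccnd1. For Ccnd3 and Ccnd1 the intervals leave room for modest changes either way.

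**Figure D2:**
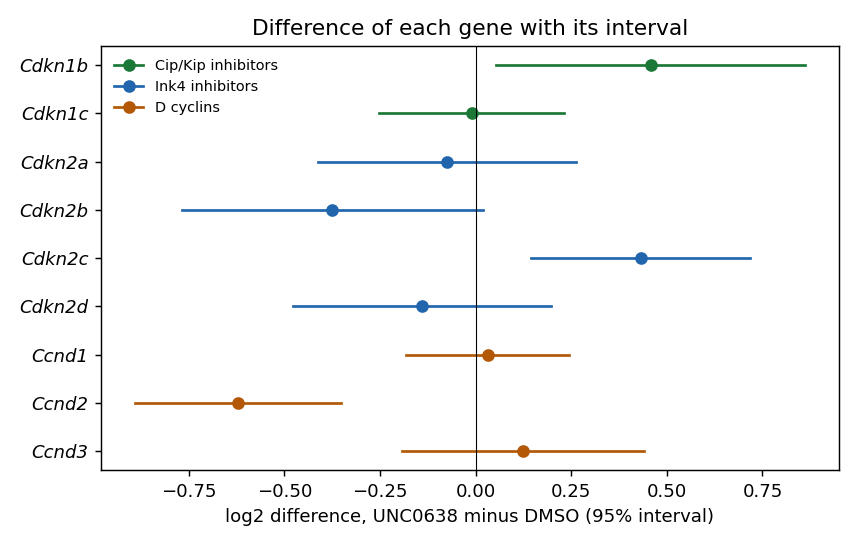
Log2 difference (UNC0638 minus DMSO, horizontal axis) of each measured gene with its 95% interval from limma, coloured by family. The intervals of Ccnd2 (-0.89 to -0.35), Cdkn2c (0.14 to 0.72) and Cdkn1b (0.054 to 0.86), which are not adjusted for the number of genes, lie on one side of 0, and those of the other 6 genes cross it.

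Among the Cip/Kip inhibitors, Cdkn1b had the higher signal after UNC0638. It encodes p27, an inhibitor that is abundant in resting cells and is removed by proteolysis as cells enter S phase. Its brighter probe set (10542317) read 401, 306 and 361 after UNC0638, against 299.6, 186 and 291 after DMSO. The lowest UNC0638 array was just above the highest DMSO array, and DMSO 2 stood well below the other DMSO arrays. The means were 356 ± 47.8 after UNC0638 and 259 ± 63.5 after DMSO (SD, n = 3 each), and the log2 difference was 0.46 (SE 0.18, 95% interval 0.054 to 0.86, limma adjusted p = 0.327). Without DMSO 2 it was 0.25. The second probe set of Cdkn1b (10542310) read 186, 168 and 163 after UNC0638 and 169, 199.6 and 109.8 after DMSO. There the groups overlapped, DMSO 2 was the highest array, not the lowest, and the difference was 0.14. The mean of both probe sets gave 0.30.

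Cdkn1c encodes p57, a product of an imprinted gene that helps to hold haematopoietic stem cells in quiescence. Its intensities were 51.2, 55.3 and 46.3 after UNC0638 and 42.7, 57.8 and 54.5 after DMSO. The UNC0638 readings lay within the range of the DMSO readings, all near the array medians. The log2 difference was -0.011 (SE 0.11, 95% interval -0.25 to 0.23, limma adjusted p = 0.986), and its sign turned when single arrays were left out.

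None of the 4 Ink4 inhibitors passed the test, and differences between them were not tested. Cdkn2c encodes p18, an Ink4 protein that restrains the division of haematopoietic stem cells. Its probe set (10515090) read 306, 274 and 327 after UNC0638, against 233, 181 and 251 after DMSO. No UNC0638 array was as low as any DMSO array, and DMSO 2 was again the lowest of all. The means were 302 ± 26.9 after UNC0638 and 222 ± 36.6 after DMSO (SD, n = 3 each), and the log2 difference was 0.43 (SE 0.13, 95% interval 0.14 to 0.72, limma adjusted p = 0.191, unadjusted p = 0.00818). Its difference lay between 0.30 and 0.52 over the same 15 alternatives, with adjusted p of 0.12 to 0.371.

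Cdkn2b, which encodes p15, an inhibitor induced by TGF-beta, had the largest difference below 0 among the inhibitors. It read 70.3, 62.3 and 48.7 after UNC0638 and 67.1, 73.5 and 112 after DMSO. The groups overlapped, and DMSO 3 stood above all other arrays. The means were 60.4 ± 10.9 after UNC0638 and 84.3 ± 24.5 after DMSO (SD, n = 3 each), the log2 difference was -0.38 (SE 0.17, 95% interval -0.77 to 0.018, limma adjusted p = 0.424), and without DMSO 3 it was -0.18.

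Cdkn2a encodes p16 and, in another reading frame, p19Arf, which stabilises p53, and its single probe set does not tell the transcripts apart. It read 54.2, 75.8 and 55.9 after UNC0638 and 59.1, 56.6 and 83.3 after DMSO. In each group 1 array stood above the other 2, and the difference was -0.075 (SE 0.15, 95% interval -0.41 to 0.26, limma adjusted p = 0.907), with 0.068 without DMSO 3. Mtap, a gene of methionine salvage beside Cdkn2a on chromosome 4, read 241, 208 and 305 after UNC0638 and 342, 327 and 327 after DMSO. All its UNC0638 arrays were below its DMSO arrays, but it did not pass (log2 difference -0.40, limma adjusted p = 0.233). Elavl2, a further gene of that region, was dim, at 18.1, 18.0 and 22.4 after UNC0638 and 17.4, 16.2 and 17.3 after DMSO, with a difference of 0.11 (limma adjusted p = 0.682). Cdkn2d, which encodes p19 of the Ink4 family, read 239.6, 300.0 and 197 after UNC0638 and 287, 288 and 234 after DMSO. The highest and the lowest of its 6 readings were both UNC0638 arrays. Its difference was -0.14 (SE 0.15, 95% interval -0.48 to 0.20, limma adjusted p = 0.785) and lay at -0.0018 without UNC0638 3.

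The promoters of Cdkn1b and Cdkn2c are shown because these were the 2 inhibitor genes whose UNC0638 arrays all lay above their DMSO arrays. The 250 bases before an annotated start are given from RefSeq (GRCm38.p6), 5′ to 3′ along the gene's strand, with GC boxes (GGGCGG, either strand) and CCAAT boxes (CCAAT, either strand) in capitals.
Cdkn1b, chr6:134920151-134920400, plus strand: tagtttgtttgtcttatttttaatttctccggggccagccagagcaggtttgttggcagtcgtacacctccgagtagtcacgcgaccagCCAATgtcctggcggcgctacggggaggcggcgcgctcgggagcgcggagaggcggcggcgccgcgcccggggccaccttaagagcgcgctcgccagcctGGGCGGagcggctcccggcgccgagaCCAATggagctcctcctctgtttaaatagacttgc
Cdkn2c, chr4:109666757-109667006, minus strand: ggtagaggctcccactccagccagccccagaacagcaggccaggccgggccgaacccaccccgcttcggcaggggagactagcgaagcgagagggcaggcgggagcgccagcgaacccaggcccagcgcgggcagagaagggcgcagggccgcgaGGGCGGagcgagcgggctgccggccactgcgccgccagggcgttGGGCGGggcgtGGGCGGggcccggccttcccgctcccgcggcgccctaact

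The Cdkn1b window held 1 GC box and 2 CCAAT boxes, and the Cdkn2c window held 3 GC boxes and 0 CCAAT boxes. Both were rich in G and C, at 64.4% and 77.2% of bases. RefSeq gives Cdkn2c a second start, whose window had 42.8% G and C and neither box, and the probe set does not tell which start was used. For 7 of the 10 members a promoter was listed, with 11 windows in all, of which 7 held a GC box and 3 a CCAAT box. No window was listed for Ccnd2, Ccnd1 or Cdkn1c, so their promoters were not searched for any motif. Among all 32851 windows of this length 32.7% held a GC box and 33.8% a CCAAT box. A site for E2F (TTTNGCGC) was found in 1 member window, that of the downstream of the Cdkn2a starts, and in 1.13% of all. One for FOXO (GTAAACA) was found in 1 window of Ccnd3 and in 3.17% of all. An E-box (CACGTG) was in 0 of 11 and 6.02% of all, and a STAT site (TTCNNNGAA) in 0 of 11 and 7.02% of all. All motifs were searched on both strands, GC and CCAAT boxes did not overlap each other in the windows shown, and a match describes letters, not binding.

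Around the members, 10 lists held genes of G1 control and, by position, the neighbours of Cdkn2a and Cdkn2b. Of their 140 distinct genes 135 were measured, and 0 passed the test (limma, 0.672% of all genes). At an unadjusted limma p under 0.05 there were 33, of which 25 were lower and 8 higher, against backgrounds of 6.21% lower and 6.47% higher. The median log2 difference of the 135 was -0.068. The sums of the mast cell and macrophage lists were higher on the same UNC0638 arrays, as given above, and their part in these counts was not tested.

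Of 19 measured E2F target genes of S phase, 0 passed. At an unadjusted limma p under 0.05, 9 were lower and 0 higher, against 6.21% lower and 6.47% higher of all genes. Below 0 lay 17 of the 19, with a median of -0.22 beside 0.012 for all genes. Rrm2, the small subunit of ribonucleotide reductase, read 1595, 1476 and 1631 after UNC0638, against 1952, 1941 and 1998 after DMSO (log2 difference -0.32, SE 0.077, limma adjusted p = 0.12). Mcm2, of the replicative helicase, read 472, 479 and 471 after UNC0638, against 584, 723 and 568 after DMSO (-0.38, SE 0.10, limma adjusted p = 0.156). In both genes the groups were apart. Among the cyclins and kinases that act after cyclin D, 0 of 10 passed and 9 lay below 0, with a median of -0.18 beside the same 0.012. Ccna2, which encodes the S phase cyclin A2, averaged 1576 ± 166 after UNC0638 and 1908 ± 70.8 after DMSO (limma adjusted p = 0.258). The phosphatase Cdc25a, an activator of CDK2, averaged 250.4 ± 29.3 after UNC0638 and 300.5 ± 1.42 after DMSO (SD, n = 3 each, limma adjusted p = 0.302).

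The kinase partners of the D cyclins and the pocket proteins, the retinoblastoma family, had 0 of 5 past the test and a median of -0.032. Cdk4 read 1774, 1802 and 1628.5 after UNC0638, against 2180.2, 2137 and 1916 after DMSO. All 3 UNC0638 arrays were below the DMSO arrays, at a log2 difference of -0.26 (SE 0.086, limma adjusted p = 0.256). Rb1, the retinoblastoma gene, was at 0.21 (SE 0.12, limma adjusted p = 0.543), with overlapping groups. Of 10 E2F and DP factors 0 passed, and the median was -0.067. E2f4, a factor that works with pocket proteins in repression, read 298, 302 and 234 after UNC0638 and 444, 414 and 348 after DMSO (-0.51, SE 0.13, limma adjusted p = 0.127). E2f6, a repressor that acts with Polycomb proteins, read 199, 118 and 215 after UNC0638 and 319, 280.4 and 221 after DMSO (-0.60, SE 0.21, limma adjusted p = 0.269). The groups of E2f6 were apart by a small margin.

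**Figure D3:**
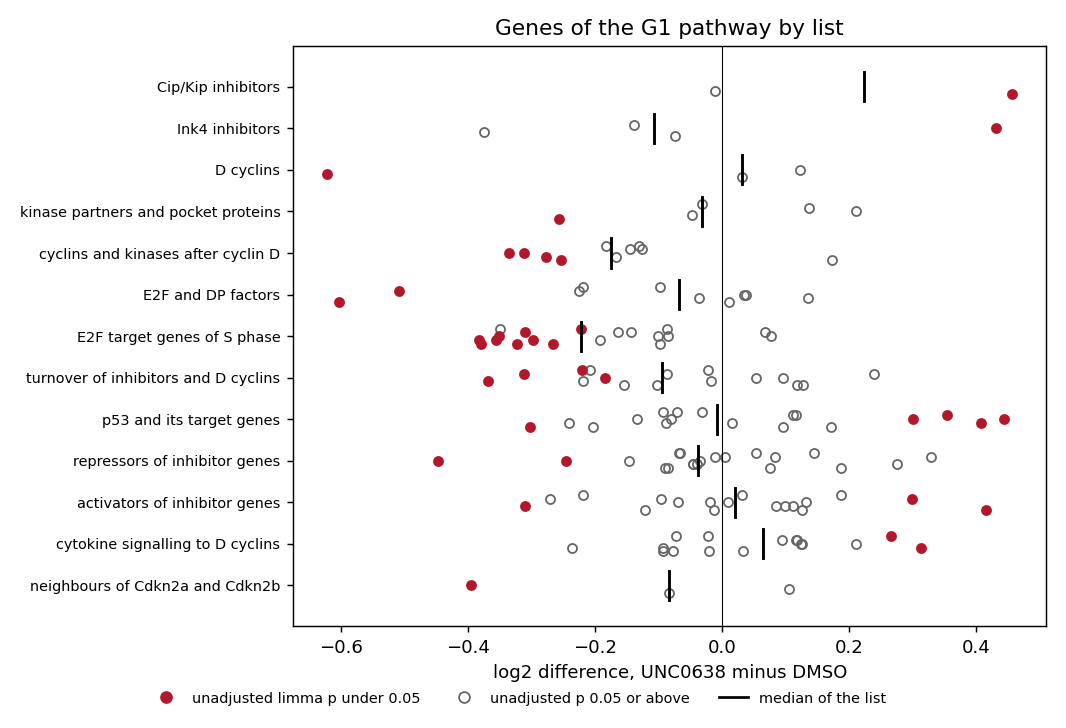
Log2 difference (UNC0638 minus DMSO) of every measured gene in the 3 member families and the 10 lists, which include the neighbours of Cdkn2a and Cdkn2b. Each circle is 1 gene, filled in red at an unadjusted limma p under 0.05, and black bars are list medians. In the E2F target list 9 of 19 circles are filled, all below 0, against 6.21% of all genes lower at that p, and its median is -0.22.

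Of the genes that control the turnover of inhibitors and D cyclins, 0 of 16 passed and the median was -0.095. Skp2, the ubiquitin ligase subunit that marks p27 for destruction, read 132, 133 and 121 after UNC0638 and 144, 194 and 155 after DMSO (-0.31, SE 0.11, limma adjusted p = 0.28). Dtl, the subunit that directs destruction of p21, read 256, 269 and 305 after UNC0638 and 405, 306 and 379 after DMSO (-0.37, SE 0.12, limma adjusted p = 0.226). In both the groups did not overlap, by a narrow gap in Dtl. Of p53 targets and partners, a group that would include the unmeasured Cdkn1a, 0 of 18 passed and the median was -0.0078. The death receptor gene Fas read 146, 156 and 157 after UNC0638 and 90.5, 111 and 125 after DMSO (0.44, SE 0.11, limma adjusted p = 0.128). Gadd45a, a stress response gene, averaged 438 ± 21.3 after UNC0638 and 339.6 ± 27.8 after DMSO (0.35, SE 0.088, SD, n = 3 each, limma adjusted p = 0.13). Both had their UNC0638 arrays above their DMSO arrays. Over the 18, 9 lay above 0 and 9 below. The groups were apart and higher in 4 and apart and lower in 2, against 9.59% and 7.4% of all genes.

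Among repressors of inhibitor genes, 0 of 20 passed and the median was -0.038. Myc, which represses Cdkn1b and Cdkn2b and activates Ccnd2, read 2026, 2331 and 2257 after UNC0638, against 2963, 3251 and 2823 after DMSO. The groups were well apart, at a log2 difference of -0.45 (SE 0.091, limma adjusted p = 0.0808, and under 0.05 with a trended, robust prior). Ehmt2, which encodes the inhibited enzyme G9a, averaged 101 ± 2.40 after UNC0638 and 123 ± 13.0 after DMSO (-0.25, limma adjusted p = 0.293), and Ehmt1, which encodes GLP, 169 ± 12.2 after UNC0638 and 174 ± 12.2 after DMSO (-0.040, limma adjusted p = 0.92, SD, n = 3 each). UNC0638 acts on the enzymes, so these levels do not check the treatment. Of 18 activators of inhibitor genes 0 passed, and the median was 0.020. Klf4, a factor that activates Cdkn1a, was at 0.42 (SE 0.13, limma adjusted p = 0.224) and Dmtf1, which activates the Arf transcript of Cdkn2a, at 0.30 (SE 0.11, limma adjusted p = 0.296). Of 16 cytokine signalling genes that lead to D cyclins 0 passed, and the median was 0.064. The IL6 receptor gene Il6ra was at 0.31 (SE 0.085, limma adjusted p = 0.159) and the kinase gene Jak2 at 0.27 (SE 0.084, limma adjusted p = 0.224). In these 4 genes, named for the lowest p of their lists, every UNC0638 array was above every DMSO array. Groups were apart and higher in 3 of the 18 activators and 3 of the 16 cytokine genes, against 9.59% of all genes. Apart and lower were 0 of the 18 and 1 of the 16, against 7.4% of all genes.

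Profiles most like those of the members were sought for the 2 with the lowest unadjusted p, Ccnd2 and Cdkn2c. Each gene's log2 values were centred on its mean, and the root mean square difference to the member over 6 arrays was taken for 19936 genes. All genes share the arrays, so a likeness includes whatever sets single arrays apart. Nearest to Ccnd2 were the small nucleolar RNA gene Snord52 (0.0509), Tpi1 of glycolysis (0.0827) and Lyar, which encodes a nucleolar growth regulator (0.0836). Tpi1 read 1966, 1826 and 1537 after UNC0638, against 2649.99, 2810.03 and 2539 after DMSO, so that UNC0638 3 was lowest and DMSO 2 highest, as for Ccnd2. Of the 3, Lyar passed the test and fell (-0.67, limma adjusted p = 0.0288), while Tpi1 (-0.59, adjusted p = 0.0557) and Snord52 (-0.57, adjusted p = 0.0703) did not. Nearest to Cdkn2c were the ubiquitin ligase gene Rnf13 (0.05045), the serpin gene Serpinb6a (0.0554) and the annexin gene Anxa1 (0.0559). None of these 3 passed, at differences of 0.43, 0.36 and 0.41 (limma adjusted p = 0.146, 0.364 and 0.286). Anxa1 read 2673, 2212 and 2699.7 after UNC0638, against 1927, 1542 and 2276 after DMSO, with DMSO 2 lowest as for Cdkn2c.

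**Figure D4:**
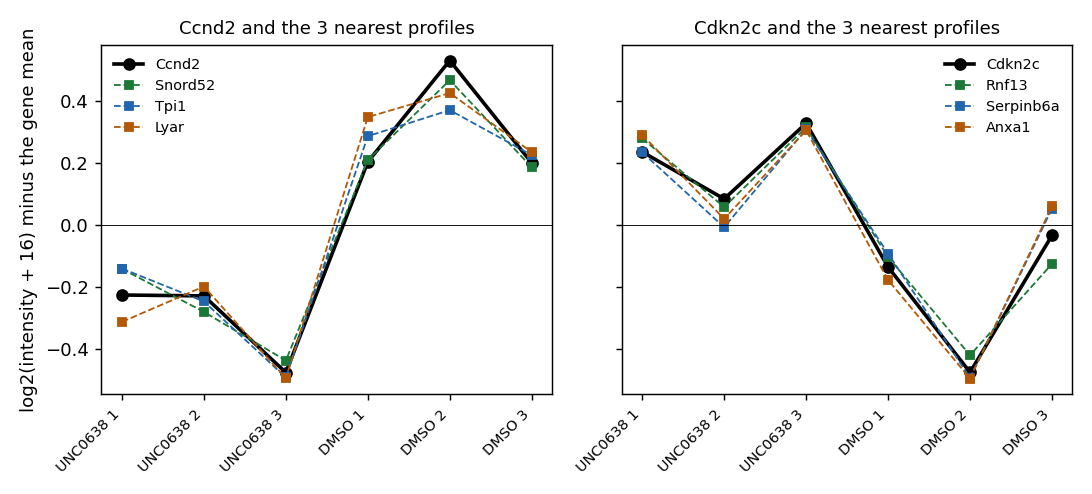
Centred log2(intensity + 16) on the 3 UNC0638 and then the 3 DMSO arrays for Ccnd2 and Cdkn2c (black) and the 3 genes of smallest root mean square difference to each (dashed). DMSO 2 is the highest array for Ccnd2 and the lowest for Cdkn2c, and the dashed lines follow both.

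DMSO 2 was thus an extreme array for Ccnd2, Cdkn2c and the brighter Cdkn1b probe set. Without it the differences were -0.51 for Ccnd2, 0.30 for Cdkn2c and 0.25 for Cdkn1b, all nearer to 0 and with the same sign (limma adjusted p = 0.169, 0.371 and 0.559).

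**Figure D5:**
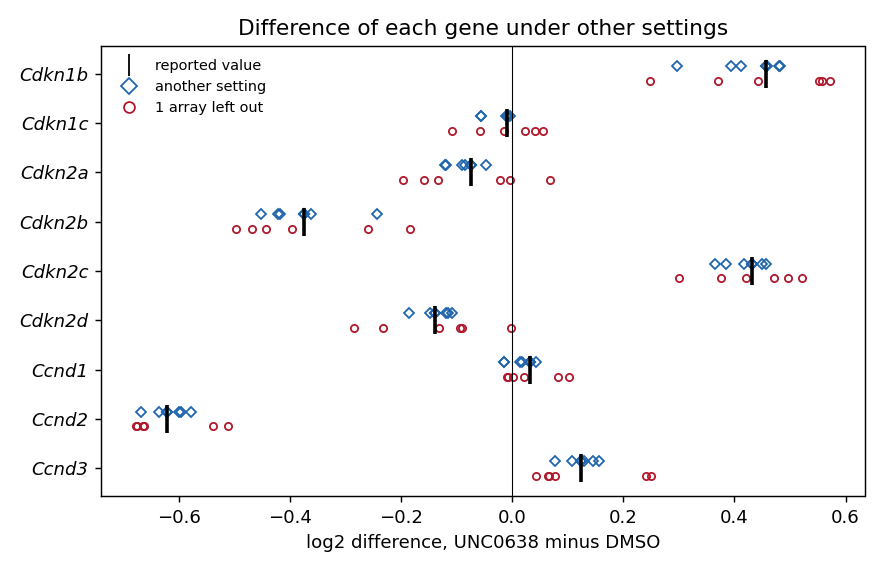
Log2 difference (UNC0638 minus DMSO) of each measured gene as reported (black bar), under 9 other settings (blue diamonds) and with 1 of the 6 arrays left out (red circles). Values of Ccnd2 run from -0.68 to -0.51 and those of Cdkn2c from 0.30 to 0.52, while those of Cdkn1c, Cdkn2a and Ccnd1 lie on both sides of 0.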

How the data were processed

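Trizol-extracted total RNA (6 ug) was turned into biotinylated cRNA for Affymetrix arrays, per the labels' protocols. The values deposited by the authors are intensities on a linear scale, 1 for each probe set on each array. Their summarisation, background correction, normalization and any scaling are not stated in the labels used here. Of 34760 probe sets 21640 had 1 gene symbol, 1321 several and 11799 none. Only the first kind was used, with the probe set of the highest mean per gene. The fit of log2(intensity + 16) on group used limma 3.58.1 in R 4.3.3, with Benjamini-Hochberg adjustment over 19937 genes and a threshold of 0.05. The fit was tested on simulated data. Genes were named by a rule: all members, and in each list the largest changes past the threshold or, with none, the 2 lowest unadjusted p, with Ehmt1, Ehmt2, Mtap and the 3 nearest profiles. Cell type markers were outside the rule and were named after their values were seen. List genes without a matching single-symbol probe set were not analysed here. The members, the lists and the rule were chosen with earlier results of these data known. Alternatives were pseudocounts of 1 and 64, quantile normalization, median centring, a filter on dim genes, the mean of probe sets, a trended robust prior, a replicate block, array weights and each array left out. Figures used matplotlib 3.10.9 in Python 3.11.15.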

Additional observations from a re-analysis of the deposited data

How the results depend on the processing

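Over 15 alternatives, 125 of 135 member differences kept their sign and their side of the threshold. The count of members past the threshold was 0 as reported and 1 (Ccnd2) without the dimmest 40% of genes and with the trended robust prior, where calls over all genes were 192 and 182, against 134 as reported. With that prior the count of pathway list genes was 1 (Myc). Leaving out each array in turn gave 0 to 0 for both counts. Signs turned for Ccnd1 with quantile normalization (-0.01465), median centring (-0.01449), without UNC0638 3 (-0.0084) and without DMSO 1 (-0.009581). They turned for Cdkn1c without UNC0638 3 (0.04056), DMSO 2 (0.05558) and DMSO 3 (0.02226), and for Cdkn2a without DMSO 3 (0.06807). With 1 array left out, differences ran from -0.009581 to 0.1028 for Ccnd1, from -0.1095 to 0.05558 for Cdkn1c and from -0.1975 to 0.06807 for Cdkn2a. The cause was not tested. With the replicate number as a block 0 members and 0 list genes passed, and 73 of all genes did, against 134 without it. Deviations of same-numbered arrays correlated at -0.066, 0.11 and 0.017, and not every array was nearest to its own number, so the numbers are not taken as pairs. Calls over all genes were 49 with a pseudocount of 64, and 10 to 69 with 1 array left out. Of the 134 calls 74 were higher, and of 115 with median centring 50 were. The standard errors of the members, 0.093 to 0.18 as reported, limit the changes that 3 arrays a group can show.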
